A study of Mus musculus with 2 samples.

Results

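The chromatin around 10 genes was described: Creb1, Crem and Atf1, which encode the classical cAMP-responsive factors, Atf2, Atf3, Atf4 and Atf5, which encode related factors of the activating transcription factor group, and Crtc1, Crtc2 and Crtc3, which encode coactivators of CREB. These 10 were listed by name, not by any measured value, out of 21938 protein-coding genes annotated on the reference chromosomes. For each gene, DNase-seq peaks and footprints were read within the gene body and 50 kb on either side. DNase-seq maps sites where the enzyme DNase I cuts chromatin readily, a peak is a stretch of high cutting, and a footprint is a short stretch inside open chromatin that is cut less than its surroundings. The tissue was whole cerebellum of male B6CASTF1/J mice, F1 hybrids of the C57BL/6 and CAST strains, aged 8 to 10 months, with no treatment and no second condition. There were 2 libraries, biological replicates 1 and 2, each from a pool of 2 biosamples, and whether any animal gave tissue to both pools is not stated, so part of the variation between the replicates may be technical. All statements are about 1 bulk tissue, in which fewer cells of a type and a lower signal per cell cannot be told apart.

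CREB1, ATF1 and CREM bind the cyclic AMP response element (CRE) as dimers of basic leucine zipper proteins. They switch genes on once protein kinase A or the calcium/calmodulin-dependent kinases phosphorylate them and the coactivators CBP and p300 are recruited. CRTC proteins are a further input: calcineurin and the salt-inducible kinases decide whether they stay in the cytoplasm or enter the nucleus and bind CREB. ATF4 and ATF5 belong to the integrated stress response, in which phosphorylation of eIF2 alpha favours their translation. In neurons CREB and its coactivators are known for coupling synaptic activity to transcription.

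Except at Crtc3, the strongest start peak of each gene exceeded its distal peaks in both replicates, so promoters are shown. They are the 5 with the most bases under footprints of both replicates, 250 bases before to 50 after the start in the RefSeq promoter table (GRCm38, the mm10 build), 5′ to 3′ in the direction of the gene. Capitals mark bases under a footprint in both replicates.
Creb1, chr1:64532554-64532853, + strand: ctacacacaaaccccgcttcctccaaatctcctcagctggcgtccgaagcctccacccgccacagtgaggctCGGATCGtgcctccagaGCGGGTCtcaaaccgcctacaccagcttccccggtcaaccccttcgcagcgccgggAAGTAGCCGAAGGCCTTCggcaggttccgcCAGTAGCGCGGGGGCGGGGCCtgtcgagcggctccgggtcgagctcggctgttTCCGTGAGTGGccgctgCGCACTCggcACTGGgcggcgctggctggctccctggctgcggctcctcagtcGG
Atf2, chr2:73892590-73892889, - strand: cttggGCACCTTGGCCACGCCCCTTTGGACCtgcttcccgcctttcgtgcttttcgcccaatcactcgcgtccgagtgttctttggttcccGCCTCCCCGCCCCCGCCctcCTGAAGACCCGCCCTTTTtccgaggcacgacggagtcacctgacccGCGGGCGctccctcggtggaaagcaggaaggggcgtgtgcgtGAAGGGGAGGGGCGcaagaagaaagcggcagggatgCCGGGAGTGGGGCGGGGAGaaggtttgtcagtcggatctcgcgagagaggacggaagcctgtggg
Atf3, chr1:191183284-191183583, - strand: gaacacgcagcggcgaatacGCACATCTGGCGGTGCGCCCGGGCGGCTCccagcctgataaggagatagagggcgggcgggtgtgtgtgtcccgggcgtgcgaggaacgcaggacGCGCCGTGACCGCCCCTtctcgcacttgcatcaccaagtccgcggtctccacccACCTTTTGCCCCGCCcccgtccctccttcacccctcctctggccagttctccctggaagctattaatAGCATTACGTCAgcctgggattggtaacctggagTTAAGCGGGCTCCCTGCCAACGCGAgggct
Atf5, downstream start, chr7:44815609-44815908, - strand: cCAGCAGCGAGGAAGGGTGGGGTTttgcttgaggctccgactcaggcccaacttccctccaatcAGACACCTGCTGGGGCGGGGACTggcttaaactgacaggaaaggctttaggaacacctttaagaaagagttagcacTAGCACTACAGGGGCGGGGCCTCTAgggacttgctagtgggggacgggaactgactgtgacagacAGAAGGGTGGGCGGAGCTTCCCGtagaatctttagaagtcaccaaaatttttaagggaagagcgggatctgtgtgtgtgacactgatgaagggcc
Crtc1, chr8:70439524-70439823, - strand: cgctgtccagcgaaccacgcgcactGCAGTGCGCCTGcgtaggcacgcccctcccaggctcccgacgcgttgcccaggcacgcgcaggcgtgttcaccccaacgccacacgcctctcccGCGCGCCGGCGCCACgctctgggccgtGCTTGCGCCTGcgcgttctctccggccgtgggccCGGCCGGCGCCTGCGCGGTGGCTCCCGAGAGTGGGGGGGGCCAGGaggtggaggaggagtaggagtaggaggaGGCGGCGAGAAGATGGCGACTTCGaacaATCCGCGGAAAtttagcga

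Among these promoters Crtc1 had 118 bases under footprints of both replicates, Atf2 101, Atf3 98, the downstream start of Atf5 94 and Creb1 78. Of the promoters not shown, Atf1 had 66, Atf4 47 and Crtc3 10. The capitals in Creb1, Atf2, Atf3 and Atf5 include GC-rich runs that hold the letters GGGCGG or their reverse complement CCGCCC, a short match for the SP/KLF zinc finger factors. In Atf3 one of the capital runs ends in TTACGTCA, which lies at the start itself.

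The CRE is the palindrome TGACGTCA, and TGACG with its reverse complement CGTCA is its half-site, which every full CRE also contains. For Creb1, Atf3, Atf4 and Crtc1, the half-sites that lay within 1 kb of a start and overlapped a footprint in both replicates are shown. Each is in capitals with 12 bases on either side. These are places where a CREB or ATF sequence and a footprint coincide at the genes' own starts. Crem also had such places, which are described with that gene below. A match is a description of letters and does not show which protein, if any, was bound.
Creb1, chr1:64532898-64532926, + strand: agtgttggtgagTGACGcggcggaggtgt
Creb1, chr1:64532986-64533014, + strand: gaacgaaagcagTGACGgaggagcttgta
Atf3, chr1:191183324-191183352, - strand: ttaatagcattaCGTCAgcctgggattgg
Atf4, chr15:80255212-80255240, + strand: acaccggaaattCGTCAacgagcgatccc
Atf4, chr15:80255367-80255395, + strand: ggcgggcgagggCGTCAgtgagaggcggt
Crtc1, chr8:70439433-70439461, - strand: aggacctgagccTGACGcgggccgcgcgg

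The Atf3 half-site lay 2 bp from the start at 191183336 to 191183340 on chromosome 1, and all 5 of its bases were under a footprint in both replicates. It is part of TTACGTCA, which differs from the CRE at 1 base (G2T, counted from 1 at the 5′ end of the CRE), and all 8 bases of that site were footprinted in both replicates. TTACGTCA was looked for after this start had been seen, and 0.561% of the 20150 promoters of coding genes in the table hold it. Over the genome, a footprint covered all 8 bases of 48.9% and 51.4% of the TTACGTCA sites inside peaks of replicate 1 and replicate 2. At Creb1 the half-site 18 bp downstream of a start had 3 bases under a footprint in replicate 1 and 5 in replicate 2, and the one 106 bp downstream had 4 and 5. At Crtc1 the half-site 128 bp downstream had 2 bases covered in each replicate. At Atf4 the coverage was thinner, with 1 base in each replicate for the site 41 bp from a start. The other Atf4 site had 3 bases in replicate 1 and 1 in replicate 2. It lay 142 bp upstream of a later annotated start, and downstream of the first start at 80255184. This Atf4 site and the Crtc1 site lay in no peak of the stricter deposited list in either replicate. The Creb1 site 106 bp downstream lay in such a peak in replicate 2 but not in replicate 1. Coverage of 1 or 2 bases means that the footprint ended at the edge of the site.

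All 10 genes had a peak at a start in both replicates, that is, a peak of the stricter list overlapping the 1 kb on either side of any annotated transcript start. Of all coding genes 55.9% had one in both replicates. The strongest start peak of the 10 genes had a median signal of 9.40 in replicate 1 and 6.47 in replicate 2, against 4.83 and 3.38 for coding genes that had such a peak. Signal is the authors' own value for each peak, a coverage measure on a scale that no label states. The median log2 ratio (replicate 1 over replicate 2) was 0.42 over the 46923 replicate 1 peaks that overlapped one of replicate 2. Levels were therefore read within each replicate, and the percentage given with each gene is the share of coding genes with a lower start signal in that replicate. Coding genes without a start peak count as lower.

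**Figure D1:**
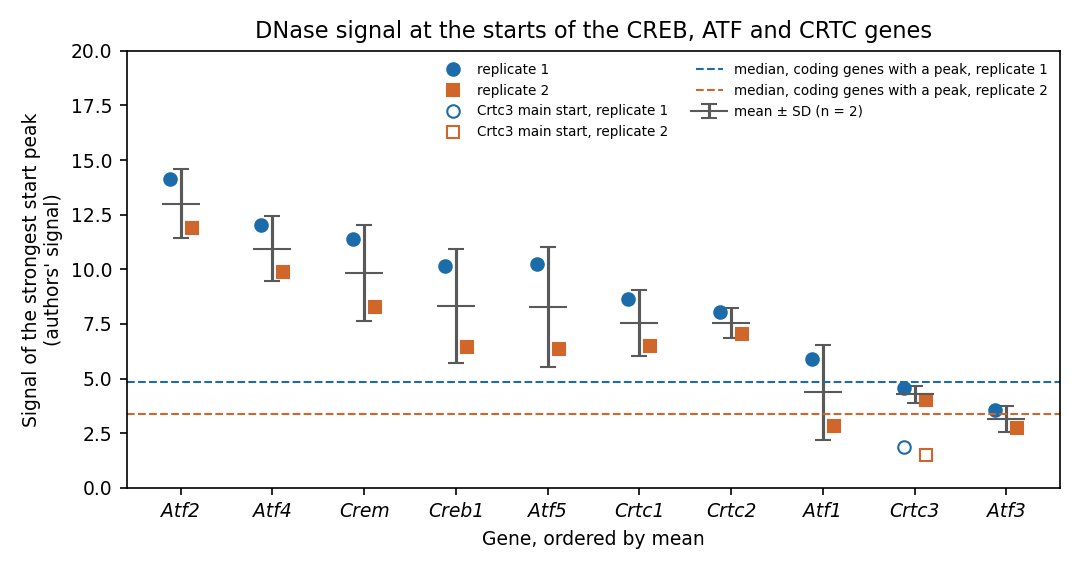
Signal of the strongest peak within 1 kb of any annotated start of each gene (authors' signal, vertical axis), for replicate 1 (circles) and replicate 2 (squares), with the mean ± SD of the 2. Dashed lines are the medians of coding genes with a start peak, 4.83 and 3.38, and open symbols give the main start of Crtc3, 1.856 and 1.504; Atf2 is highest and Atf3 lowest by mean.

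Creb1, the founding cAMP-responsive activator, had a start signal of 10.2 in replicate 1 and 6.46 in replicate 2 (8.31 ± 2.61, SD, n = 2), above 92.6% and 88.7% of coding genes. Its peak of 340 bp in replicate 1 and 360 bp in replicate 2 was centred in an exon 0.2 kb downstream of the start, and a weaker one of 1.41 and 1.07 followed 0.9 kb into the gene. The other annotated starts of Creb1, which give transcripts with no coding sequence, held no peak and no footprint in either replicate. Nothing distal was strong around this gene. Its 171.9 kb window held 4 peaks in replicate 1 and 5 in replicate 2, all at starts except 1 peak of 0.341 in replicate 2, and the remaining ones lay at the starts of Mettl21a and Gm28982, 84.6 kb or more downstream of the Creb1 start.

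Atf1 encodes the closest relative of CREB1 and dimerises with it. Its start signal was 5.91 in replicate 1 and 2.84 in replicate 2 (4.37 ± 2.17), above 76.8% and 67.0% of coding genes. Against the medians of coding genes with a start peak, 4.83 and 3.38, it was higher in replicate 1 and lower in replicate 2. The log2 ratio between replicates was 1.06, or 0.64 above the median of all shared peaks, the widest gap of the 10 genes. Around it lay 11 distal peaks in replicate 1 against 3 in replicate 2. Of the 11, 4 were shared, and the 7 seen in replicate 1 alone had signals of 0.321 to 0.956. The strongest of the 4, at 3.497, overlapped a replicate 2 peak of 4.25 that was centred within 1 kb of a Dip2b start. The strongest peak that was distal in both replicates, at 2.64 and 2.33, lay 47.4 kb upstream in an intron of Dip2b.

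Crem gives both activators and repressors, and its short internal transcripts encode ICER, an inducible repressor that lacks the activation domain. GENCODE places its transcript starts in 7 clusters along chromosome 18. The upstream cluster, with 11 transcripts, had a signal of 11.4 in replicate 1 and 8.29 in replicate 2 (9.83 ± 2.18), above 94.9% and 93.8% of coding genes. The peak that carried the value was 60 bp wide in replicate 1 (3337621 to 3337680) and wider in replicate 2 (3337361 to 3337840). It is shared with the start of Gm6225, a noncoding transcript that begins 0.3 kb away, and the 2 genes' contributions cannot be told apart. A half-site 10 bp from a start of this cluster had all 5 bases under a footprint in both replicates. Of the 4 intermediate clusters, 10.2 kb to 38.2 kb downstream, none had a peak or a footprint within 1 kb in either replicate.

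The internal Crem starts had a nearby peak in both replicates, at a far lower level. They form 2 clusters 55979 and 56616 bp downstream of the first start, at 3281738 to 3281769 and at 3281078 to 3281132, with 4 and 3 transcripts whose coding sequences run from 95 to 125 codons. The strongest peak within 1 kb had a signal of 0.949 in replicate 1 (3280941 to 3281160) and 1.65 in replicate 2 (3280741 to 3281140), 1.30 ± 0.495 (SD, n = 2). In each replicate this peak lay over the cluster at 3281078 to 3281132. The 1 kb windows of the 2 clusters overlap, so both clusters take their value from it. Over the cluster at 3281738 to 3281769 only replicate 2 had a peak, of 0.449 (3281701 to 3281920). Among peaks above the median signal of their library, replicate 1 had none at the internal starts, and the mean was then 0.825. So the order of the replicates was turned at the internal starts, where replicate 2 was higher, compared with the upstream start, where replicate 1 was. Within 1 kb of the internal starts replicate 1 had 4 footprints, and replicate 2 had 12 at one cluster and 13 at the other. Bases with a false discovery rate (FDR) of the cut rate under 0.001 numbered 515 in replicate 1 and 947 and 1082 in replicate 2, against 1642 and 2223 at the upstream cluster. The upstream window was wider, because the starts of that cluster run from 3337063 to 3337748.

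**Figure D2:**
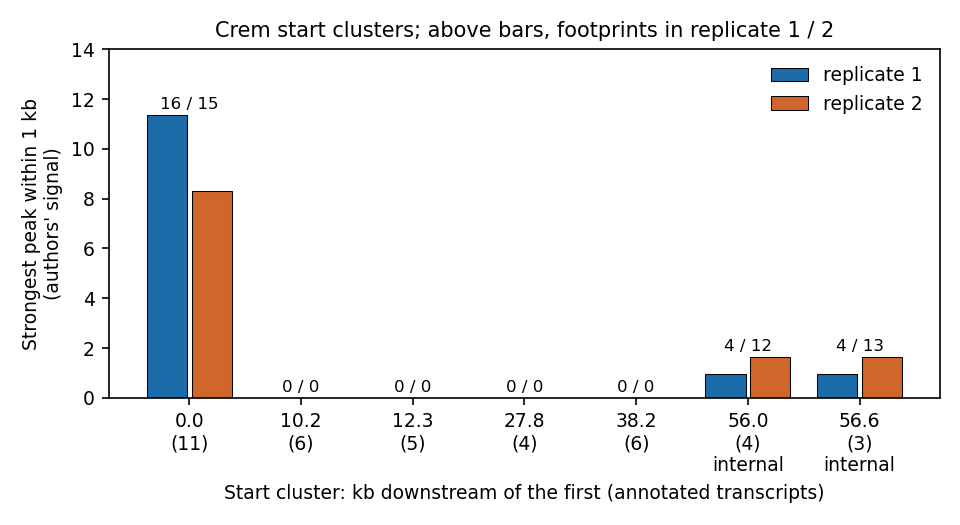
Signal of the strongest peak within 1 kb of each Crem start cluster (authors' signal, bars from 0), in replicate 1 and replicate 2, ordered by distance downstream of the first cluster; numbers in brackets are annotated transcripts and numbers above bars are footprints. The upstream cluster reached 11.4 and 8.29, and the 4 intermediate clusters had no peak. The bars of both internal clusters, 0.949 and 1.65, show the same peak, which lay over the last cluster.

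The internal Crem region was also the only place near any start of the 10 genes where a full CRE met a footprint. Crem was thus 1 gene of 10 with a CRE under a footprint of either replicate within 1 kb of a start, beside 3.17% of all coding genes, with or without a start peak. A CRE 4 bp upstream of an internal start (3281101 to 3281108) overlapped a footprint in both replicates, by 2 bases in replicate 1 and 1 base in replicate 2. Another, 56 bp upstream of the other cluster (3281821 to 3281828), overlapped one by 1 base in replicate 2 alone. A further CRE 40 bp upstream lay in no peak and under no footprint. These overlaps are at the edges of footprints. Over the genome, 732 CREs lay wholly inside peaks of replicate 1 and 813 inside peaks of replicate 2, and a footprint covered all 8 bases of 77.3% and 74.1% of them, while 90.9% and 87.2% had at least 1 base covered.

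Atf2 encodes a partner of JUN that is activated by stress kinases, and its start was the most open of the 10. Its signal was 14.1 in replicate 1 and 11.9 in replicate 2 (13.0 ± 1.56), above 98.2% and 98.6% of coding genes. The peak is shared with the start of Gm10822, a long noncoding RNA that begins 0.4 kb away. The later starts of Atf2, 29.3 kb to 47.1 kb downstream, had no peak and no footprint in either replicate. All 3 distal peaks of replicate 1 were shared by replicate 2, which had 1 more, at 0.556. They lay 40.2 kb and 32.7 kb upstream and 24.6 kb downstream, with signals of 6.94, 4.83 and 1.52 in replicate 1 and of 4.31, 4.04 and 1.08 in replicate 2.

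The peak 40.2 kb upstream of Atf2 had the highest mean of the shared distal peaks around the 10 genes, 5.62 ± 1.86 (SD, n = 2). It is intergenic, and its bases common to both replicates are shown, with capitals for the 87 of 200 bases under a footprint in both.
Atf2 distal peak, chr2:73932781-73932980, + strand: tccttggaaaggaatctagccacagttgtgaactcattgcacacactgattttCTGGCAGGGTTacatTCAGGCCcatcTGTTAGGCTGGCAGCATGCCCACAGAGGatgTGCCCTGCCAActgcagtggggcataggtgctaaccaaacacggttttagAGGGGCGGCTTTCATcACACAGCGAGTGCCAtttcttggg

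This stretch holds the C/EBP-ATF composite site, TGATGNAA, read on the reverse strand from base 170, where ATF4 and C/EBP proteins are known to bind as a pair. The site overlapped a footprint in both replicates, but the base printed in lower case within it was not covered in both. In the counts that follow, an overlap of 1 bp or more is enough. Of 215 such sites in the windows of the 10 genes, 7 lay in a peak and 2 were under a footprint in both replicates, this one among them. Over the genome 19.6% and 19.1% of these sites inside peaks of replicate 1 and replicate 2 were under a footprint.

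Atf3, a stress-induced and often repressive factor, had the lowest start signal of the 10, 3.57 in replicate 1 and 2.74 in replicate 2 (3.15 ± 0.588), above 62.9% and 66.2% of coding genes. In both replicates this was below the median of coding genes with a start peak, 4.83 and 3.38. The signal came from the downstream start, whereas the upstream start 34.7 kb away had no peak and no footprint in either replicate. In replicate 1 the open stretch was split into adjacent peaks of 3.30 and 3.57, and in replicate 2 it was 1 peak of 500 bp. Its distal peaks were weak. The 2 shared ones had 0.385 in replicate 1 and 0.348 in replicate 2, 39.7 kb upstream, and 0.435 and 0.297, 30.0 kb downstream. The noncoding D730003I15Rik start, whose peak lay 41.1 kb upstream of the downstream Atf3 start, was more open than Atf3 itself, at 6.81 and 3.89.

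Atf4, the main effector of the integrated stress response, had the second highest start, with 12.02 in replicate 1 and 9.89 in replicate 2 (10.95 ± 1.51), above 96.0% and 96.7% of coding genes. Its window of 102.4 kb was dense, with 14 and 12 peaks, of which 4 in each replicate were at the starts of other genes. Mief1 was the strongest of these, at 10.8 and 7.43. The shared distal peak nearest to the start, 5.7 kb downstream in an exon of Rps19bp1, had 4.48 and 2.42. All 4 distal peaks that replicate 1 shared with replicate 2 were above the library median of replicate 1, and the 4 that it did not share were below it, with 0.371 to 0.821. In replicate 2 the 2 unshared distal peaks, at 1.62 and 1.75, were above the library median of 0.961 and above the weakest shared one, at 1.23.

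Atf5, a relative of ATF4, has starts 1000 bp apart in a crowded stretch of chromosome 7. Its start signal was 10.2 in replicate 1 and 6.33 in replicate 2 (8.28 ± 2.75), above 92.7% and 88.3% of coding genes. The peak lies between the upstream and downstream starts and within 1 kb of the starts of Nup62 and Il4i1, 0.2 kb from the Atf5 start, so its signal cannot be assigned to Atf5 alone. The upstream promoter had no base under a footprint of both replicates, whereas the downstream one had 94. The window had the most peaks of the 10, with 39 in replicate 1 and 26 in replicate 2, or 37.4 and 24.9 per 100 kb, above 99.1% and 96.9% of coding genes. Its strongest neighbour was the start region of Akt1s1 and Tbc1d17, at 15.4 and 14.9.

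The CRTC coactivators differed in where their strongest start peaks lay. Crtc1, the form best known in neurons, had 8.63 in replicate 1 and 6.48 in replicate 2 (7.55 ± 1.52), above 88.3% and 88.8% of coding genes, all at its first start. Crtc2 had 8.02 and 7.06 at its first start (7.54 ± 0.685), above 86.0% and 90.6%. A further peak 3.1 kb into Crtc2, at 90257121 to 90257320 on chromosome 3 in replicate 1, had 7.15 and 5.36. This inner peak lies within 1 kb of annotated starts of transcripts that are not classed as protein-coding. For Crtc3 the strongest peak within 1 kb of a start had 4.55 and 4.01 (4.28 ± 0.386). It was near such an inner start 59170 bp downstream but not over it, being centred in an intron 60.0 kb downstream. A start window of 500 bp did not reach it. The main start of Crtc3 had 1.856 and 1.504 (1.68 ± 0.248). By its main start Crtc3 was thus below the median of coding genes with a start peak in both replicates, and below Atf3.

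Ordered by mean start signal, the genes ran Atf2, Atf4, Crem, Creb1, Atf5, Crtc1, Crtc2, Atf1, Crtc3 and Atf3. Neighbours in this order differed by less than their spread, taking mean ± SD of the 2 replicates, except Crtc2 against Atf1 and Crtc3 against Atf3, whose ranges did not meet. The signal values fell on whole multiples of a step in each library, and if 1 step is 1 cut, the 10 peaks held 433 to 1977 cuts with errors of 2.25% to 4.81%. This SD includes the offset between the libraries that all genes share. Within each replicate Atf2 stood above Atf4, Atf4 above Crem, Crem above Creb1, Crtc2 above Atf1 and Crtc3 above Atf3 both times. By its main start, however, Crtc3 stood below Atf3 both times. The other neighbours changed places: Creb1 stood below Atf5 in replicate 1 and above it in replicate 2, Crtc2 below Crtc1, Atf5 and Creb1 in replicate 1 and above all of them in replicate 2, and Atf1 above Crtc3 in replicate 1 and below it in replicate 2. Crtc1 likewise stood below Atf5 in replicate 1 and above it in replicate 2.

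Beyond the starts, the windows of the 10 genes held 125 peaks in replicate 1 and 124 in replicate 2. Some listed peaks of a library overlap each other, as at Atf1 in replicate 1, where 100214664 to 100214940 lies inside 100214664 to 100215640. Each was counted, so all peak counts and shares here include some open stretches more than once. Of these 23 and 23 were at a start of the gene itself, 48 and 49 at a start of another gene, and 54 and 52 were distal, centred over 1 kb from every annotated start. Per 100 kb of window the median of the 10 genes was 5.89 peaks in replicate 1 and 8.32 in replicate 2, against 3.58 and 4.04 over all coding genes. For distal peaks alone the medians were 1.81 and 2.26, against 1.23 and 1.66. The 10 genes ranged widely. Crem and Crtc2 had no distal peak in either replicate, and Creb1 had none in replicate 1 and 1 in replicate 2. Around Crtc2 the peaks were all at starts, 14 and 9 of them at starts of other genes, led by Gatad2b at 10.9 and 13.6.

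**Figure D3:**
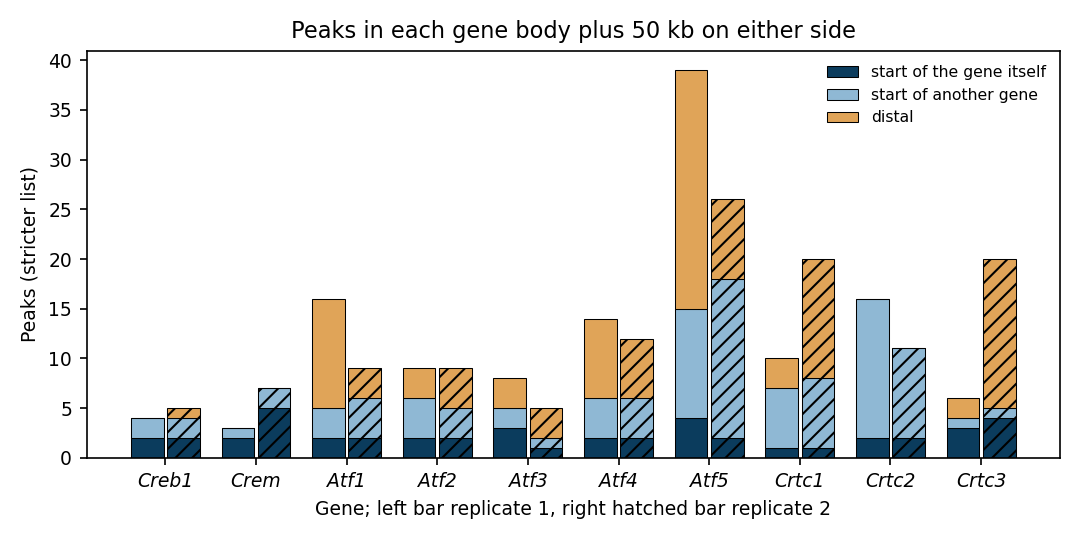
Number of peaks of the stricter list centred in each gene body plus 50 kb on either side (vertical axis), by position, with replicate 1 as the left bar and replicate 2 as the right, hatched bar. Atf5 had 39 and 26 peaks, while Crtc1 with 10 and 20 and Crtc3 with 6 and 20 had more peaks in replicate 2, nearly all of the surplus distal.

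The replicates differed more at distal peaks than at starts. At the starts of the 10 genes 18 of 23 peaks were shared in each replicate (78.3%), beside 80.6% and 79.0% of all promoter peaks of replicate 1 and replicate 2. Of the distal peaks 21 of 54 in replicate 1 (38.9%) and 20 of 52 in replicate 2 (38.5%) were shared, beside 72.5% and 58.2% of all distal peaks of those libraries. The unshared ones clustered by gene and by replicate. In replicate 1 Atf5 held 20 of them and Atf1 7, and in replicate 2 Crtc3 held 13 and Crtc1 10. They were weak in replicate 1, where 32 of 33 lay under the library median of 1.40, with a median of 0.321 against 2.73 for the shared distal peaks. In replicate 2, 18 of 32 lay under the library median of 0.961, with a median of 0.891 against 1.85 for the shared ones. These library medians are over all peaks, those at starts included. All distal peaks had medians of 1.11 in replicate 1 and 0.790 in replicate 2. The median of the unshared peaks was below that value in replicate 1 and above it in replicate 2. The longer peak list of the other replicate held 7 of the 33 and 12 of the 32. The step of the signal was 0.00714 in replicate 1 and 0.00632 in replicate 2, a sign of unequal depth if 1 step is 1 cut, and its part in these differences was not tested.

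**Figure D4:**
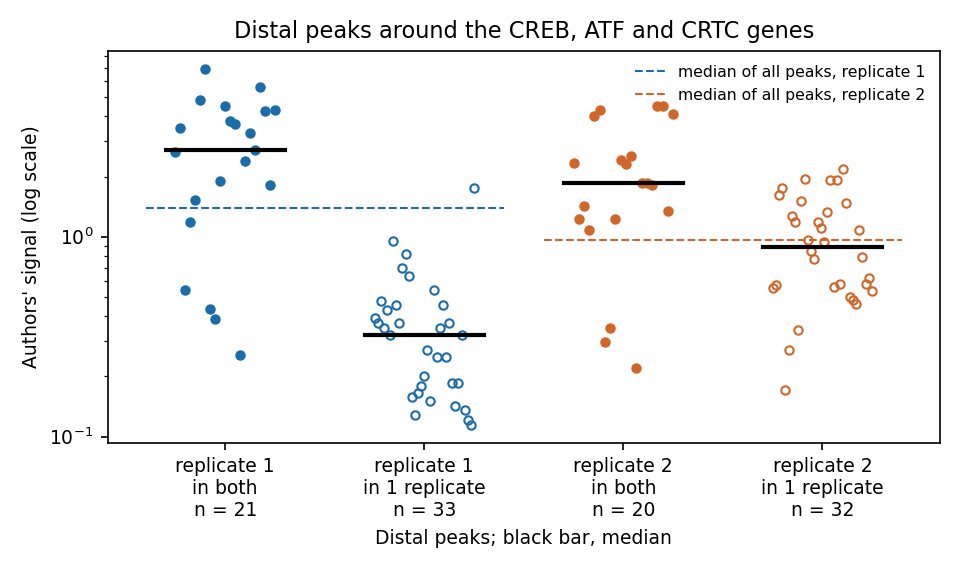
Signal of each distal peak in the windows of the 10 genes (authors' signal, log axis), split by replicate and by whether the other replicate had an overlapping peak, with medians as black bars and the median of all peaks of the library dashed. Peaks found in both replicates had medians of 2.73 and 1.85 in replicate 1 and replicate 2, and peaks found in 1 replicate had 0.321 and 0.891.

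The 20 unshared distal peaks of Atf5 in replicate 1 lay from 12.8 kb downstream to 6.5 kb upstream of the start, with signals of 0.114 to 0.543. Some were inside Atf5 itself, the upstream ones were in introns of Nup62 and Il4i1, and the others were intergenic. In that window 15.9% of bases had an FDR under 0.001 in replicate 1 and 10.3% in replicate 2, the largest shares of the 10 windows in both. Around Crtc3 the unshared peaks of replicate 2 were intronic with 1 exception, most of them 29.9 kb to 35.1 kb downstream of the start, beside a shared peak at 28.1 kb that had 4.30 and 4.09. Around Crtc1 they lay 22.4 kb to 97.3 kb downstream, among 2 shared peaks 43.8 kb and 41.2 kb downstream that had 5.64 and 4.23 in replicate 1 and 4.51 and 4.50 in replicate 2. The strong distal peaks of Crtc1, Crtc3 and Atf2 were thus found in both libraries, and the differences lay in weaker peaks.

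**Figure D5:**
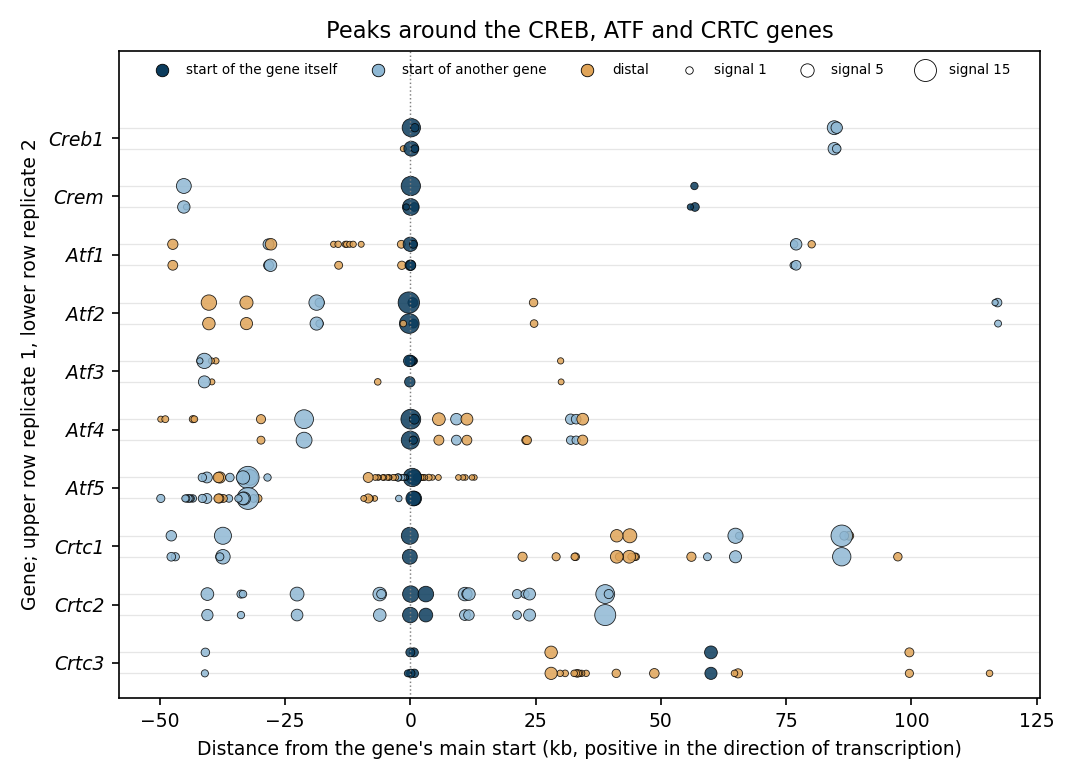
Peaks of replicate 1 (upper row of each gene) and replicate 2 (lower row) by distance in kb from the gene's main start, positive in the direction of transcription, with area increasing with signal and colour giving the position. Most peaks of high signal recur in both rows, an exception being a peak of 7.22 that lay 32.0 kb upstream of Atf5 in replicate 1 alone, and the weak distal peaks close to Atf5 in replicate 1 and inside Crtc3 in replicate 2 appear in a single row.

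Footprints numbered 702 in replicate 1 and 751 in replicate 2 in the windows of the 10 genes, with a median per gene of 43.4 and 38.3 per 100 kb against 19.4 and 19.2 over all coding genes. Atf5 had the most, 132 and 154, and Crem had 33 and 43 and Atf3 33 and 37. Inside stricter peaks lay 55.4% and 53.5% of them, beside 62.3% and 65.1% of all footprints of the libraries. Of the footprints of the 10 genes 55.7% and 52.2% overlapped one of the other replicate, beside 51.0% and 50.6% of all footprints. Crtc3 was lowest in this, with 40.9% and 24.1%, and Crtc1 in replicate 1 and Crtc2 in replicate 2 highest, with 68.4% and 72.8%. Every footprint carries the same deposited value, so none could be ranked by strength.

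Half-sites were common and mostly outside open chromatin. The windows of the 10 genes held 504, of which 46 lay in a peak of either replicate, 28 under a footprint of either and 12 under a footprint of both. Within 1 kb of a start of the gene lay 42, and 12 of those were under a footprint of either replicate, at Creb1, Crem, Atf3, Atf4 and Crtc1. These are 5 genes of 10, beside 20.4% of all coding genes. All 10 had a start peak in both replicates, against 55.9% of all coding genes, so these shares are not like for like. Inside peaks 13 of 31 half-sites in replicate 1 and 13 of 40 in replicate 2 were under a footprint, beside 42.3% and 40.8% over the genome. The full CRE was rare, with 14 in all windows and 4 in a peak. Away from the starts, 1 more was under a footprint, 47.8 kb upstream of Crtc1 beside the Tmem59l start, with all 8 bases covered in replicate 1 and none in replicate 2.

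The RefSeq table held 9 promoters for 8 of the 10 genes, with Atf5 present at both starts and Crem and Crtc2 not matched. They held 8 to 40 CpG dinucleotides in 300 bases, against a median of 14 over 20150 promoters of coding genes, and only the downstream Atf5 start was below that median. The SP/KLF letters GGGCGG were in 7 of 9 promoters, beside 47.8% of all. The CCAAT box was in 5 of 9, beside 37.8%. The half-site was in 3, those of Atf1, Atf3 and Atf4, beside 24.2%, and the C/EBP-ATF site was in that of Atf3 alone, beside 3.40%. None held the full CRE, beside 2.31% of all promoters. None held the AP-1 site TGANTCA, the NRF1 core GCATGCGC or the ETS site CCGGAAG, beside 6.998%, 3.65% and 11.9%.

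Genes of the pathways around these factors, upstream and downstream, were open at their starts with few exceptions, set beside the 55.9% of all coding genes. Among 21 kinases and cyclases upstream of CREB, 20 had a start peak in both replicates and Camk2a had none in either. The strongest were Rps6ka5, a kinase of CREB and histone H3, with 14.1 and 13.2, Prkaca, the catalytic subunit of protein kinase A, with 12.7 and 9.76, and Rps6ka2, with 8.66 and 6.69. All 10 coactivators and CRTC regulators had one, led by the kinase gene Mark2 with 15.7 and 13.3, the calcineurin gene Ppp3ca with 16.0 and 10.8, and Stk11, which activates the salt-inducible kinases, with 11.1 and 13.98. In the integrated stress response list 15 of 16 had one, led by Ddit3 with 20.2 and 15.2, Eif2ak4 with 16.6 and 13.3 and Eif2ak3 with 13.0 and 14.1. Eif2ak4 and Eif2ak3 encode eIF2 kinases. Nupr1 was without a peak in either replicate.

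Other basic leucine zipper genes of the family were less uniform. Of 15, 10 had a start peak in both replicates, 2 in one replicate, and 3 in neither, of which Batf and Creb3l3 come first in the alphabet. The strongest were Crebl2 with 16.5 and 10.8, Atf7 with 13.5 and 8.58 and Creb3l2 with 8.13 and 8.35. Of 16 genes known as CREB targets 13 had a start peak in both replicates and 1 in one replicate. The clock gene Per1 was highest, with 16.4 and 15.4, followed by the phosphatase gene Dusp1 with 12.2 and 9.75 and the immediate early gene Egr1 with 12.1 and 8.48. Pck1 of gluconeogenesis and the neuropeptide gene Sst had none in either. These lists were drawn up by name, and an open start does not show that a gene was transcribed.

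Over the whole series the stricter lists held 61776 peaks in replicate 1 and 71141 in replicate 2, of which 76.0% and 66.1% were shared. The tissue label was checked with marker genes. All 6 granule cell markers had a start peak in both replicates, with means of 2.24 for Gabra6 to 11.1 for Cbln3. Of 3 Purkinje markers Calb1 alone had one, at 0.407, and of 3 astrocyte markers Slc1a3 alone, at 0.677. Markers of oligodendrocytes, microglia, endothelium, forebrain neurons and liver had no start peak in either replicate.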

How the data were processed

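The authors deposited, for each library, 2 peak lists, a table of cut-rate FDR values and a footprint list, made without pooling the replicates, on mm10 per the labels. Not given in the sources used here: aligner, callers and read totals. Each deposited peak carries the authors' signal, on an unstated scale. Its values are whole multiples, within 0.05, of 0.00714 in replicate 1 and 0.00632 in replicate 2. The lists were told apart by their number of peaks, the shorter being taken as the stricter. The deposited FDR, a q-value, served as a check. Every peak of the stricter list held a base under 0.001, against 64.1% of the longer list in replicate 1 and 63.9% in replicate 2. The stricter list was used, and the longer list was an alternative. The deposited footprints all carry the q-value 0.01.

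From these, peaks and footprints were counted by their middle base in the gene body plus 50 kb, with GENCODE mouse release 21 starts. A start peak overlapped 1 kb on either side of a start, and the strongest gave the signal. Starts under 500 bp apart formed a cluster, and Crem clusters with coding sequences of at most 130 codons in all transcripts were its internal starts. Shared means an overlap of 1 bp or more. Letters were matched without mismatch on both strands in the GRCm38 sequence, and a site was under a footprint where they overlapped by 1 bp or more. There was 1 group, so no test was made. Values are given per replicate and as mean ± SD (n = 2). Counting errors cover counting alone. CAST and C57BL/6 alleles of these hybrid mice were not resolved.

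All 10 genes were described, with the neighbour of strongest mean start signal, the strongest shared distal peak, and in each list the 3 genes of highest mean and up to 2 without a start peak, first in the alphabet. The genes and lists were chosen with earlier results of these data known. Interval functions were tested on simulated data. Python 3.11.15, numpy 2.4.6, pandas 2.3.3, pysam 0.24.0 and matplotlib 3.10.9 were used.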

Additional observations from a re-analysis of the deposited data

How the results depend on the processing

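All 10 genes had a start peak in both replicates under every setting tried. Start signals moved by less than their SD for 9 of 10 genes with a start window of 500 bp, with starts of protein-coding transcripts, and with the main start cluster alone (chosen after seeing the data). The exception was Crtc3, at 1.68 by its main start. The mean number of peaks in the windows was 124.5, against 200.5 with the longer list, 80.5 with the peaks above the median signal and 207 with 100 kb flanks. The mean share of peaks found in both replicates was 59.4%, against 64.4% with the longer list, 78.7% with the peaks above the median signal, 55.7% and 61.6% with flanks of 25 kb and 100 kb, and 48.2% with an overlap of 50% of each peak. Footprints averaged 726.5, against 435 and 1168 with flanks of 25 kb and 100 kb and 395.5 inside stricter peaks. Genes with a CRE under a footprint near a start were 1, against 5 with the half-site and 0 where a footprint had to cover the whole CRE. The internal Crem start averaged 1.30, and 0.825 with the peaks above the median signal, since replicate 1 had none there. No paired analysis was possible because the 2 libraries form 1 group. With 2 replicates an SD is itself imprecise, and single libraries decide the counts of weak distal peaks.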
